A study of Mus musculus with 23 samples.

Results

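The 9 genes described here are the myogenic regulators Myod1, Myog, Myf6 and Six4, the neuromuscular junction genes Musk, Chrna1, Chrnd and Ncam1, and Runx1, a transcription factor that denervated muscle is known to induce. Every probe set (a group of short probes that together report 1 transcript) whose gene symbol in the platform table is exactly one of these names was taken. That gave 19 of the 22690 probe sets of the table: 6 for Ncam1, 5 for Runx1, 2 for Six4 and 1 for each of the other 6 genes. A log2 value of 5.83, the 40th percentile of all values, serves below as a yardstick for low signal. Of the 19 probe sets, 9 lay above it on 4 or more arrays, 1 for each gene. The 9 genes are among 12393 with a probe set of their own.

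Messenger RNA was measured on 23 Affymetrix arrays of hindlimb muscle from female C57BL/6J mice aged 77 days. In the flight experiment, gastrocnemius was taken after a shuttle flight of 11 days and 19 hours (spaceflight, n = 4) or after equal time in the same kind of cage, the animal enclosure module, on earth (ground AEM, n = 4). In the calf experiment, whole calf muscle came from untreated mice (control, n = 5), from mice whose hindlimbs were unloaded by suspension for 12 days (suspension, n = 5), and from mice suspended for 12 days and then put back on their feet for 3.5 hours (reloaded, n = 5). The groups follow the sample titles, with which the source names and the series design go together. The free-text notes of the spaceflight and ground AEM groups are swapped between them, and if the notes were right every flight sign below would turn. The labels mention no transgene or deletion, and since separate animals per array are not stated there, the spread behind each p-value may be technical.

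Array medians lay between 6.15 and 6.23 on the flight arrays and between 6.28 and 6.39 on the calf arrays, and the interquartile range was wider on the former (2.75 to 2.91 against 2.21 to 2.46), so levels were not compared between the experiments. Suspension replicate 8 had the lowest median correlation with the rest of its group, 0.985, followed by suspension replicate 9 at 0.989. Skeletal muscle fibre markers were high everywhere: 6 of 6 probe sets (Acta1, Ckm, Mylpf, Tnnt3, Tnnc2 and Myh4) lay above the 40th percentile on every array, with array means of 13.48 to 13.63, and 0 of 6 were called in any comparison of groups (0 at an unadjusted p under 0.05). These means lie near the highest value of the table, 14.23, so a change in fibre markers would be hard to see.

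Myod1, Myog and Myf6 (also called MRF4) encode basic helix-loop-helix factors that bind E-boxes, the DNA letters CANNTG, and switch on muscle genes; in adult muscle their RNA depends on nerve activity. Six4 belongs to the sine oculis family of homeodomain factors, which binds the MEF3 site TCAGGTT, a well-known element of the Myog promoter. At the neuromuscular junction the receptor kinase MuSK gathers acetylcholine receptors under the nerve ending, and Chrna1 and Chrnd encode the alpha and delta subunits of that receptor. When a muscle loses its nerve, myogenin, MuSK, the receptor subunits, MyoD, the adhesion molecule NCAM and Runx1 are known to rise along the fibre, which is the pattern used here as a reference.

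The 250 bases before an annotated start are shown for Myog, Musk and Six4, the members that passed the test in flight, and for Chrna1, a textbook E-box gene that did not. The sequences are from RefSeq on GRCm38.p6, read from 5′ to 3′ on the gene's strand, and capitals mark matches on either strand to CANNTG or to TCAGGTT. Matches to CAGCTG, the E-box form preferred by MyoD and myogenin, are counted within those to CANNTG.

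Myog, chr1:134289754-134290003, plus strand: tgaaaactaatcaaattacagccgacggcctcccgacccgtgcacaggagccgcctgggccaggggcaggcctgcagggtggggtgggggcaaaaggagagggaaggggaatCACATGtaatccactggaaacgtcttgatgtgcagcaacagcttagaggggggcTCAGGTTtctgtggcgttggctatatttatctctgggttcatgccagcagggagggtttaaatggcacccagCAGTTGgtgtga

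Musk, chr4:58285712-58285961, plus strand: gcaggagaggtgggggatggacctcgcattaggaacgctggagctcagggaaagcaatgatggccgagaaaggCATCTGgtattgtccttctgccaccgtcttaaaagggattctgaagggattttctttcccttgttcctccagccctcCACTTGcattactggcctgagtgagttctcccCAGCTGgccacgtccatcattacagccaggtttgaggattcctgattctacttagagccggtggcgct

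Six4, chr12:73113246-73113495, minus strand: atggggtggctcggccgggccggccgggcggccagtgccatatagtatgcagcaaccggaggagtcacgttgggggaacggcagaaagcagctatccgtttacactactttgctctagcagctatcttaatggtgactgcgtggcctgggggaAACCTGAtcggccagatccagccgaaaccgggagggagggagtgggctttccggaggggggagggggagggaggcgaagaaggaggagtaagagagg

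Chrna1, chr2:73580339-73580588, minus strand: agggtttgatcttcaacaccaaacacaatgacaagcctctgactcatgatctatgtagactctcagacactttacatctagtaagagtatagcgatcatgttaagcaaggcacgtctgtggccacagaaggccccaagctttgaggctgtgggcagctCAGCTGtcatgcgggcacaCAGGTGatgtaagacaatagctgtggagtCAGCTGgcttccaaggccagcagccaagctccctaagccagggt

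The Myog window holds 2 CANNTG matches, 138 to 133 and 12 to 7 bases before the start, and 1 TCAGGTT match 84 to 78 bases before it. Musk has 3 CANNTG matches, of which 1 reads CAGCTG at 68 to 63 bases, and Chrna1 has 3, of which 2 read CAGCTG. Six4 has 0 CANNTG matches in this window and 1 TCAGGTT match on the opposite strand, 97 to 91 bases before the start. RefSeq lists another Six4 start, whose window (chr12:73113426-73113675) holds 0 matches to either motif and is not shown. Among 32817 windows of this length in the same table, 66.2% hold CANNTG, 13.0% hold CAGCTG and 3.50% hold TCAGGTT. A match is a string of letters, not a bound site.

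Flight against ground AEM asked which of these genes differed in muscle that had been in orbit. Myog and Musk rose and Six4 fell; the other 6 genes did not pass the test. In this comparison 3 of the 19 member probe sets were called (limma, Benjamini-Hochberg adjusted p under 0.05 over all 22626 probe sets tested), 2 higher and 1 lower, where 3.92% of all probe sets were called, 1.93% higher and 2.00% lower. The members were chosen with earlier results of these data known. Their counts, here and below, therefore cannot be weighed against the shares of all probe sets. At an unadjusted p under 0.05 the member count was 5. The spaceflight and ground AEM arrays did not overlap for 2 of the 19, Musk and Six4, beside 10.5% of all probe sets. The median log2 difference was -0.09 over the 19 member probe sets, of which Ncam1 has 6 and Runx1 5. Over all probe sets it was -0.02.

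Myog, which encodes myogenin, read 7.28, 8.24, 7.66 and 7.68 (log2 signal) on ground AEM replicates 1 to 4 and 8.70, 9.02, 8.36 and 8.16 on spaceflight replicates 8 to 11. The groups overlapped at 1 place: ground AEM replicate 2 stood above spaceflight replicate 11. The mean rose from 7.72 ± 0.39 (SD, n = 4) to 8.56 ± 0.38 (SD, n = 4), a log2 difference of 0.84 ± 0.20 (SE; 95% interval 0.42 to 1.27), or 1.79-fold, with a limma adjusted p of 0.0309. Leaving out single arrays moved this difference between 0.69 and 1.02, and the adjusted p passed 0.05 without ground AEM replicate 1, 3 or 4 or spaceflight replicate 8 or 9, reaching 0.0879; it was 0.0999 with an intensity trend and robust estimation. In whole-muscle RNA, more cells of a type and more RNA per cell cannot be told apart.

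Musk, the receptor kinase, read 5.91, 5.74, 5.84 and 6.07 on the ground AEM arrays and 6.78, 6.56, 6.20 and 6.19 on the spaceflight arrays. Every spaceflight array lay above every ground AEM array, with replicates 8 and 9 highest, as for Myog. The log2 difference was 0.54 ± 0.13 (SE; 95% interval 0.27 to 0.82), or 1.46-fold, with a limma adjusted p of 0.0311. On the ground AEM arrays the signal lay close to the 40th percentile, which 3 of 4 of them and 4 of 4 spaceflight arrays exceeded. Without ground AEM replicate 1, 2 or 3 or spaceflight replicate 8 or 9 the adjusted p lay above 0.05, at most at 0.0950, and the difference stayed between 0.43 and 0.62 over the 8 omissions.

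Six4 has 2 probe sets, and the brighter one fell. Its ground AEM values were 7.92, 7.65, 8.15 and 8.20 and its spaceflight values 7.40, 7.33, 7.58 and 7.53. The groups did not overlap, the nearest values being 7.65 (ground AEM replicate 2) and 7.58 (spaceflight replicate 10). The log2 difference was -0.52 ± 0.12 (SE; 95% interval -0.77 to -0.27), 1.44-fold lower, with a limma adjusted p of 0.0247. That call ended without ground AEM replicate 3 or 4 or spaceflight replicate 8 or 9 (adjusted p up to 0.0829, log2 difference -0.63 to -0.45). The dimmer probe set stayed under the 40th percentile on every array and differed by -0.21 (adjusted p = 0.369).

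**Figure D1:**
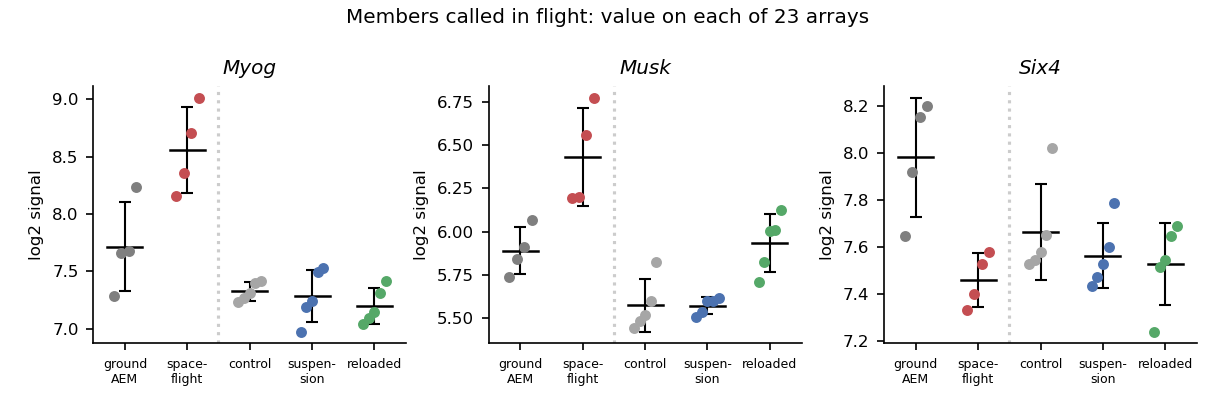
Log2 signal of Myog, Musk and Six4 (brighter probe set) on each of the 23 arrays, by group; points are arrays, the horizontal line is the group mean and the bar the SD (n = 4 or 5), and a dotted line separates the flight from the calf experiment. For Myog, 3 of 4 spaceflight values lie above the highest ground AEM value (8.24), reloaded Musk values lie above the suspension values, and spaceflight Six4 values lie below the ground AEM values.

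The other myogenic factors did not pass the test in flight. Myod1, which encodes MyoD, read 7.82, 7.42, 7.80 and 7.56 on ground AEM and 7.17, 6.93, 7.69 and 7.46 on spaceflight arrays. Its groups overlapped, and the log2 difference was -0.34 ± 0.15 (SE; adjusted p = 0.259, unadjusted p = 0.0396), opposite in sign to that of Myog. Myf6, the factor most abundant in adult fibres, differed by -0.14 ± 0.10 (SE; adjusted p = 0.494), with ground AEM values of 9.82 to 10.14 and spaceflight values of 9.72 to 10.06.

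The acetylcholine receptor subunits did not pass either. Chrna1 read 7.93, 8.01, 8.02 and 8.15 on ground AEM and 8.33, 8.40, 8.18 and 8.09 on spaceflight arrays. Ground AEM replicate 4 lay above spaceflight replicate 11, and the log2 difference was 0.22 ± 0.09 (SE; 95% interval 0.03 to 0.42, adjusted p = 0.209, unadjusted p = 0.0256). Chrnd differed by -0.07 (95% interval -0.26 to 0.11, adjusted p = 0.733).

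Ncam1, the adhesion molecule that spreads along denervated fibres, differed by -0.15 to 0.11 over its 6 probe sets, with 3 above 0 and a lowest adjusted p of 0.364. The brightest of them read 6.34 to 6.37 on ground AEM and 6.36 to 6.68 on spaceflight arrays, where replicate 9 stood highest. Runx1 differed by -0.17 to 0.05 over 5 probe sets, with 1 above 0 and a lowest adjusted p of 0.514. For each of these genes 1 probe set, the brightest, lay above the yardstick of 5.83 on 4 or more arrays, and the others read near the lower end of the signal.

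**Figure D2:**
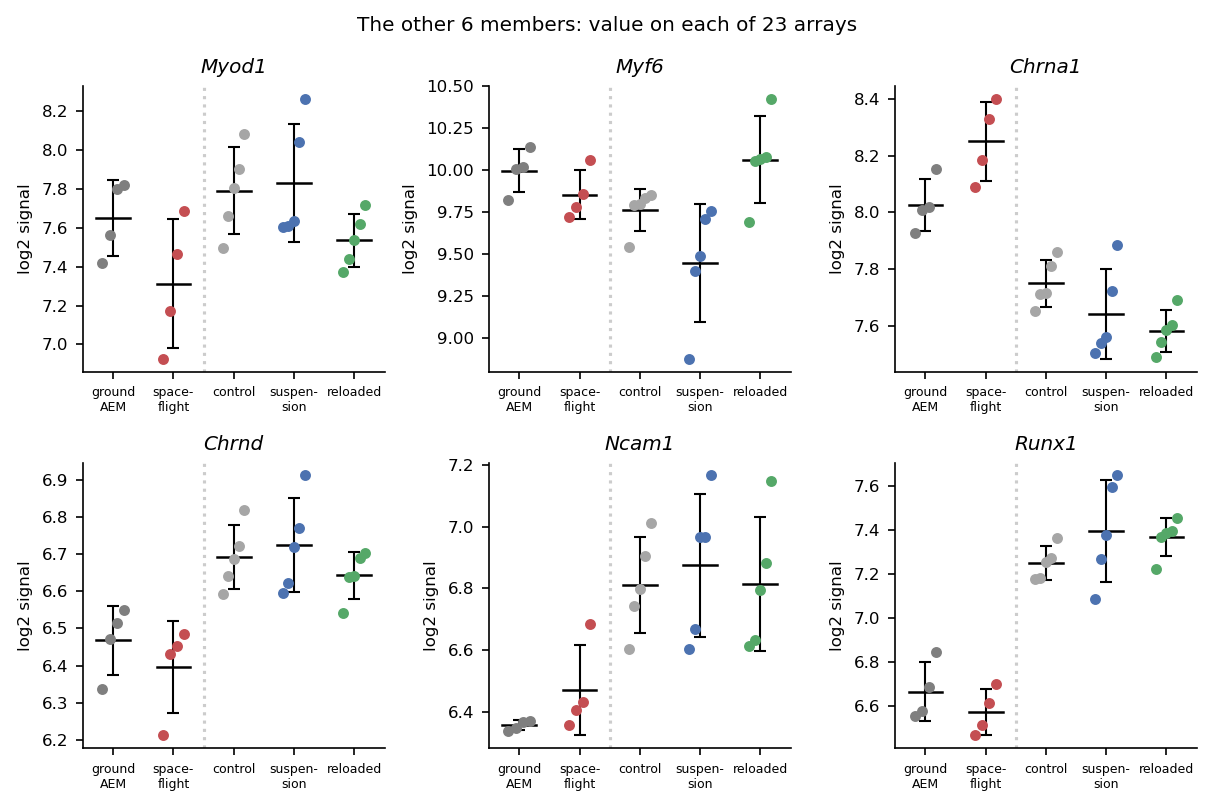
Log2 signal of Myod1, Myf6, Chrna1, Chrnd, Ncam1 and Runx1 on each of the 23 arrays, by group, using the brightest probe set of each gene; points are arrays, lines are group means and bars SDs (n = 4 or 5). The spaceflight and ground AEM points overlap in all 6 panels, and the Myf6 value of suspension replicate 8 (8.87) lies lowest.

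Cell type markers moved in the same comparison. Adipocyte genes rose in 4 of 4 genes measured (Cidec by 1.67, Adipoq by 1.44, Retn by 1.05), and their array mean went from 7.80 to 7.95 on ground AEM to 8.55 to 8.87 on spaceflight arrays. Col1a1 (-0.99) and Col3a1 (-0.61), 2 of 6 fibroblast and tendon genes, fell (array means 7.66 to 8.48 against 7.32 to 7.94), as did Kdr (-0.32), 1 of 4 endothelial genes (7.17 to 7.26 against 7.01 to 7.11), and Myl2 (-0.42), 1 of 6 slow-fibre genes (10.94 to 11.26 against 10.68 to 11.32). No call was made among the 8 satellite cell, 8 leukocyte and 7 Schwann cell genes measured, with 1, 1 and 3 probe sets at an unadjusted p under 0.05. Satellite cell array means were 6.26 to 6.27 on ground AEM and 6.15 to 6.21 on spaceflight arrays, leukocyte means 6.22 to 6.56 and 6.31 to 6.71, and Schwann cell means 6.17 to 6.66 and 6.37 to 6.55, with 4 of 9, 2 of 10 and 7 of 20 probe sets under the 40th percentile on every spaceflight array. The part of these cell types in the Myog, Musk and Six4 results was not tested.

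Suspension against control asked what unloading on the ground did. Here 0 of the 19 probe sets were called by limma, beside 0.234% of all probe sets (0.115% higher and 0.119% lower). Of the members, 1 reached an unadjusted p under 0.05, and the lowest adjusted p was 0.666. Myog read 7.40, 7.42, 7.31, 7.27 and 7.23 on the controls and 7.53, 7.49, 7.24, 7.19 and 6.97 on the suspension arrays, which enclosed the control range. Its log2 difference was -0.04 (95% interval -0.25 to 0.17, adjusted p = 0.954), an interval that ends below the lower bound of the flight interval, 0.42.

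Musk differed by 0.00 between suspension and control (95% interval -0.18 to 0.18), with controls at 5.44 to 5.83 and suspension arrays at 5.51 to 5.61; 0 of these 10 arrays exceeded the 40th percentile. Six4 differed by -0.10 (brighter probe set, adjusted p = 0.882), Chrna1 by -0.11 (adjusted p = 0.838) and Chrnd by 0.03 (adjusted p = 0.954). Runx1 differed by -0.03 to 0.15 over its 5 probe sets. The largest value among the members was that of Myf6, -0.32 ± 0.14 (SE; adjusted p = 0.666, unadjusted p = 0.0346), with suspension values of 8.87, 9.40, 9.75, 9.71 and 9.49 against controls at 9.54 to 9.85. Suspension replicate 8, the array that correlated least with its group, was lowest; without it the difference was -0.18.

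Ncam1 differed by -0.01 to 0.13 over its 6 probe sets in suspension. Without suspension replicates 8 and 9 its brightest probe set went from 0.06 to -0.07, and that of Runx1 from 0.15 to -0.01. Schwann cell markers stand beside these values because NCAM is also made by Schwann cells: Mbp (1 of 7 genes measured) rose by 1.29 to 2.10 in 5 of its 8 probe sets, the array mean of the list was 6.46 to 6.70 on controls and 6.92 to 7.33 on suspension arrays, and 7 of 20 and 5 of 20 of its probe sets stayed under the 40th percentile on every array of these groups. Of the 20 Schwann cell probe sets, 17 lay above 0 (median 0.22), with 11 at an unadjusted limma p under 0.05. The part of these markers was not tested. The slow-fibre marker Myl3 fell by 0.39 to 0.61 over its probe sets, and 0 of 8 satellite cell and 0 of 8 leukocyte genes were called (0 and 1 probe sets at an unadjusted p under 0.05). All 8 slow-fibre probe sets lay below 0 (median -0.43), with 8 at an unadjusted limma p under 0.05. So did all 14 fibroblast and tendon probe sets (median -0.42, 11 at that level). All 7 adipocyte probe sets lay above 0 (median 0.26, 4 at that level). In these last 2 lists 0 genes were called, and their part was not tested either.

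Reloading for 3.5 hours against suspension asked what the return of weight did. Again 0 of 19 probe sets were called by limma, beside 0.380% of all probe sets (0.367% higher and 0.0133% lower), with 3 at an unadjusted p under 0.05. The reloaded arrays read 6.01, 6.12, 5.83, 6.01 and 5.71 for Musk, each above the highest suspension array. It was the 1 member probe set of 19 whose groups did not overlap, beside 1.13% of all probe sets. The log2 difference was 0.36 ± 0.09 (SE; 95% interval 0.18 to 0.55), with an adjusted p of 0.105, and without reloaded replicate 33, the lowest, it was 0.42 with an adjusted p of 0.0324.

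Myf6 read 10.08, 10.05, 9.69, 10.42 and 10.07 on the reloaded arrays. Reloaded replicate 16 fell within the suspension range, and the others lay above it. The log2 difference was 0.62 ± 0.14 (SE; 95% interval 0.33 to 0.91), or 1.54-fold, with an adjusted p of 0.0636. The call depended on the setting: quantile normalization gave an adjusted p of 0.0264, whereas leaving out suspension replicates 8 and 9 gave a log2 difference of 0.41 with an adjusted p of 0.437.

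Myod1 differed by -0.29 ± 0.13 (SE; adjusted p = 0.557) between reloaded and suspension arrays, with reloaded values of 7.37 to 7.72 inside or below suspension values of 7.60 to 8.26. Myog differed by -0.08 (adjusted p = 0.825), Six4 by -0.04 in the brighter probe set (adjusted p = 0.930), Chrna1 by -0.06 (adjusted p = 0.843) and Chrnd by -0.08 (adjusted p = 0.780). Over Ncam1 the range was -0.14 to -0.02, and over Runx1 -0.06 to 0.09. Cell type markers also moved here, with 0 Schwann cell and 0 fibroblast and tendon genes called. Above 0 lay 2 of 20 Schwann cell probe sets (median -0.16) and 12 of 14 fibroblast and tendon probe sets (median 0.33). At an unadjusted limma p under 0.05 these lists had 8 and 5 probe sets. The part of these cell types was not tested.

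Reloaded against control shares the reloaded arrays with the comparison above, so its values are given only side by side. It gave 0 of 19 calls by limma, beside 0.203% of all probe sets (0.159% higher and 0.0442% lower), with 3 at an unadjusted p under 0.05. Groups overlapped for all 19 members, and did not for 1.88% of all probe sets. Musk differed by 0.36 (adjusted p = 0.130), with 3 of 5 reloaded and 0 of 5 control arrays above the 40th percentile, and control replicate 21 (5.83) overlapping the reloaded range. Myf6 differed by 0.30 (adjusted p = 0.871), Chrna1 by -0.17 (adjusted p = 0.879), Myod1 by -0.25 (adjusted p = 0.879) and Myog by -0.13 (95% interval -0.34 to 0.08, adjusted p = 0.977). Among slow-fibre genes Myl3 was called lower, and 0 of 8 probe sets lay above 0 (median -0.33, 6 at an unadjusted limma p under 0.05). Of the Schwann cell probe sets, 16 of 20 lay above 0 (median 0.10, 8 at that level). The part of these cell types was not tested.

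**Figure D3:**
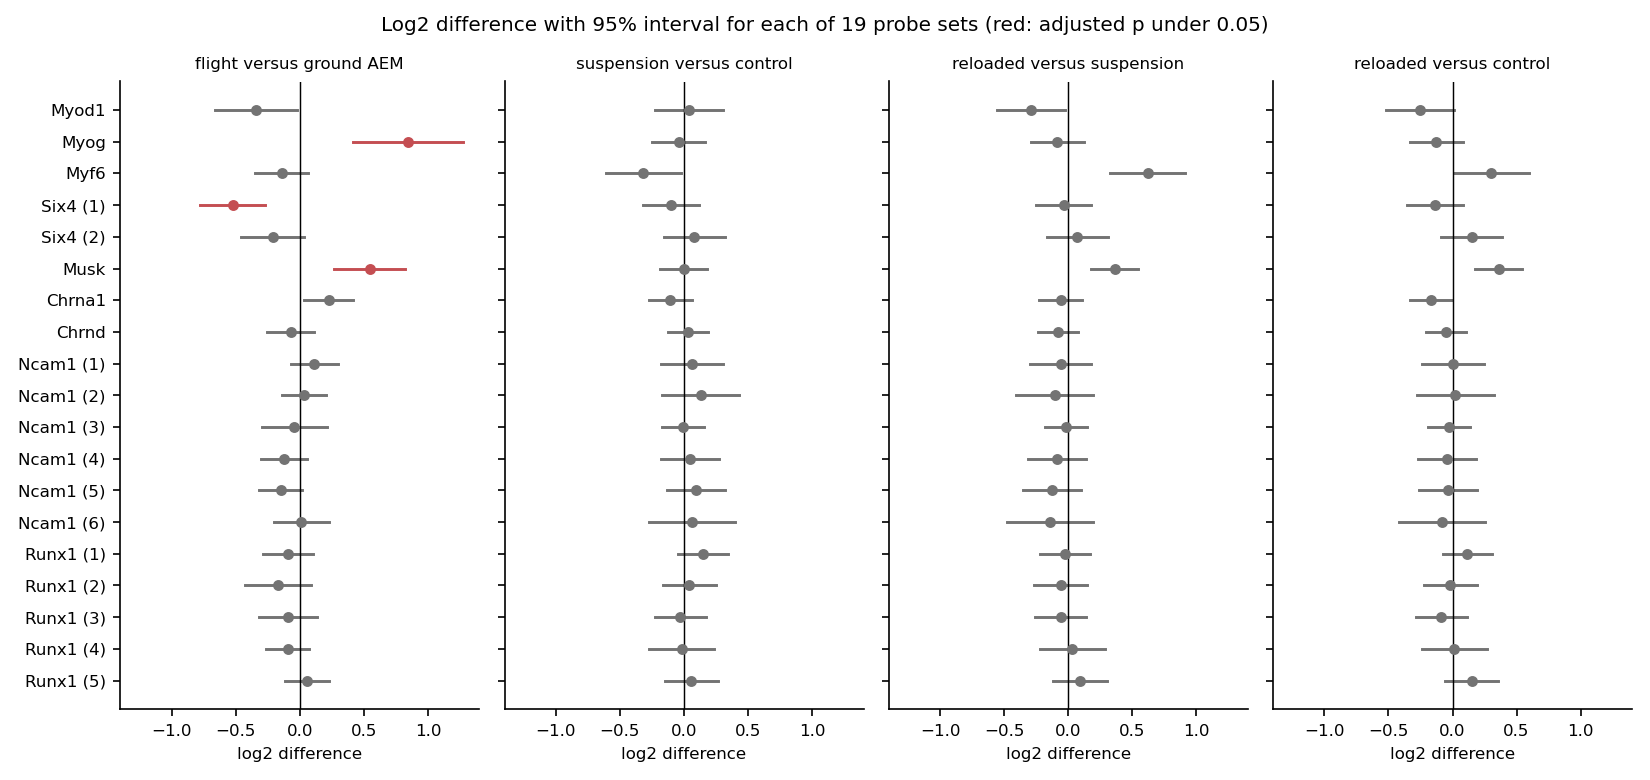
Log2 difference of each of the 19 member probe sets (rows, numbered within a gene from the brightest) in the 4 comparisons of groups; bars are 95% intervals from limma, and red marks an adjusted p under 0.05. Red appears in the flight panel alone, for Myog (0.84), Musk (0.54) and Six4 (-0.52), while Myf6 (0.62) and Musk (0.36) stand right of 0 in the panel of reloaded against suspension.

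Whether the flight effect differed from the calf effects was tested directly, with each effect taken within its own experiment over all 23 arrays. For Myog it did: flight minus suspension was 0.89 ± 0.22 (SE; 95% interval 0.44 to 1.33, adjusted p = 0.0421), and flight minus reloaded-against-control was 0.97 ± 0.22 (SE; 95% interval 0.53 to 1.41, adjusted p = 0.0134). Each of these comparisons called 1 of 19 member probe sets, higher. Beside that stand 0.919% of all probe sets for the difference from suspension (0.557% higher and 0.362% lower) and 1.99% for the difference from reloading (0.955% higher and 1.04% lower). The difference from suspension lost its call in 13 of 18 omissions of a single array (adjusted p up to 0.123), whereas the difference from reloading kept it in 18 of 18 (adjusted p up to 0.0426). Tissue (gastrocnemius or whole calf) and array handling changed together with the experiment and cannot be told apart from it here. The interquartile range of the arrays also differed, 2.75 to 2.91 in flight against 2.21 to 2.46 in the calf experiment. Its part in these differences between effects was not tested.

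For Musk the difference from the suspension effect was 0.55 ± 0.15 (SE; adjusted p = 0.0895) and that from the reloaded effect 0.18 ± 0.15 (SE; 95% interval -0.13 to 0.50, adjusted p = 0.754). Six4 gave -0.42 (adjusted p = 0.305) and -0.39 (adjusted p = 0.312), so its fall in flight was not shown to differ from its values in the calf experiment. Chrna1 gave 0.33 (adjusted p = 0.251) and 0.39 (adjusted p = 0.0914), and Myf6 0.18 (adjusted p = 0.813) and -0.44 (adjusted p = 0.342).

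**Figure D4:**
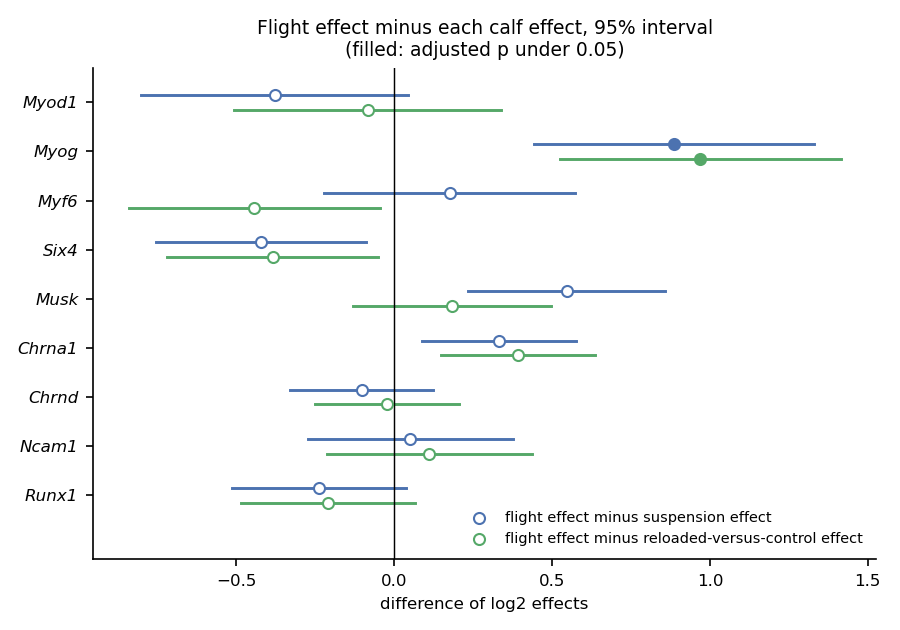
Difference between the flight effect and each calf effect (log2) for the brightest probe set of the 9 members; bars are 95% intervals from limma over all 23 arrays, and filled points have an adjusted p under 0.05. Myog is filled for both differences (0.89 and 0.97); the other 8 genes are open.

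Of the 7 members known to rise after denervation (Myod1, Myog, Musk, Chrna1, Chrnd, Ncam1 and Runx1), 2 rose in flight, 0 fell and 5 did not pass the test. Of all probe sets, 1.93% were called higher and 2.00% lower in flight. The 16 probe sets of the 7 genes had a median log2 difference of -0.06 in flight and 0.04 in suspension, beside -0.02 and 0.01 over all probe sets. Ncam1 has 6 of these probe sets and Runx1 5, mostly of low signal, so these medians do not give the centre of the 7 genes. In flight the brightest probe set of each gene lay above 0 for Myog (0.84), Musk (0.54), Chrna1 (0.22) and Ncam1 (0.11). It lay below 0 for Myod1 (-0.34), Runx1 (-0.09) and Chrnd (-0.07). In suspension, in reloaded against suspension and in reloaded against control, 0 of the 7 genes were called. These comparisons called 0.234%, 0.380% and 0.203% of all probe sets, so a count of 0 says little about the 7 genes. Myog and Musk were the members of this pattern that rose in flight. Values that did not pass the test were those of Myod1 (-0.34), Chrna1 (0.22), Chrnd (-0.07), Ncam1 (-0.15 to 0.11) and Runx1 (-0.17 to 0.05).

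Among 10 other genes known to rise after denervation, 8 were measured, and 1 was called in flight: Ampd3, an AMP deaminase, rose by 0.56 ± 0.10 (SE; adjusted p = 0.00669), from 7.56 to 7.79 on ground AEM to 7.94 to 8.35 on spaceflight arrays. Its flight effect exceeded its suspension effect by 0.81 ± 0.18 (SE; adjusted p = 0.0186). Of all probe sets, 1.93% were called higher in flight and 0.557% were called higher in the difference from suspension. Gadd45a, a stress gene that denervated muscle induces, differed by 0.48 ± 0.16 (SE; adjusted p = 0.121) in flight and by 0.39 ± 0.11 (SE; adjusted p = 0.285) in suspension. Chrng, the fetal receptor subunit whose return marks denervation, differed by -0.11 to -0.02 over 3 probe sets in flight and by -0.07 to 0.08 in suspension. All but its brightest probe set stayed under the 40th percentile on every array. In flight 3 of the 12 probe sets of this list had a value above 0, with a median of -0.05, and in suspension 7 did, with a median of 0.03. They had 3, 1, 2 and 0 unadjusted p under 0.05 in flight, suspension, reloaded against suspension and reloaded against control, with 0 called genes in the 3 calf comparisons.

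Dach2 and Hdac9, repressors known to fall after denervation, differed by -0.15 (adjusted p = 0.478) and -0.06 (adjusted p = 0.857) in flight and by -0.04 and -0.15 in suspension. Their 2 probe sets lay under the 40th percentile on every spaceflight and every suspension array, so a fall would be hard to see. Dok7 and Hdac4 were not analysed here.

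Other junction genes stayed below the threshold: 0 of the 21 measured genes of a 25-gene list were called by limma in any of the 4 comparisons of groups, with 7, 5, 5 and 2 of 40 probe sets at an unadjusted p under 0.05. In flight, 14 of the 40 probe sets had a value above 0, from -0.40 to 0.26, with a median of -0.08 beside -0.02 over all probe sets; in suspension 27 did, with a median of 0.03 beside 0.01. Among the genes named whether called or not, Agrn (agrin, the nerve signal to MuSK) differed by 0.12, Lrp4 (its receptor) by 0.26 and Rapsn (rapsyn, the receptor anchor) by 0.12. The adjusted p of Lrp4 was 0.292, and its signal exceeded the 40th percentile on 0 arrays. Receptor subunits Chrnb1 and Chrne differed by 0.11 and 0.09, and Ache, the synaptic esterase, by 0.11. In suspension the 6 values were 0.01, 0.01, 0.02, 0.15, -0.02 and -0.01 in that order.

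Among partners of the myogenic factors, 0 of 22 measured genes (of 24 listed; 42 probe sets) were called in the 4 comparisons, with 5, 0, 8 and 1 probe sets at an unadjusted p under 0.05. Mef2c, a cofactor of myogenin, differed by -0.26 to 0.01 over 5 probe sets in flight, with a lowest adjusted p of 0.0860. Pax7, the satellite cell factor, differed by -0.21 (adjusted p = 0.303) in flight and -0.07 in suspension. The median over the 42 probe sets was -0.07 in flight and -0.04 in suspension, beside -0.02 and 0.01 over all probe sets.

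**Figure D5:**
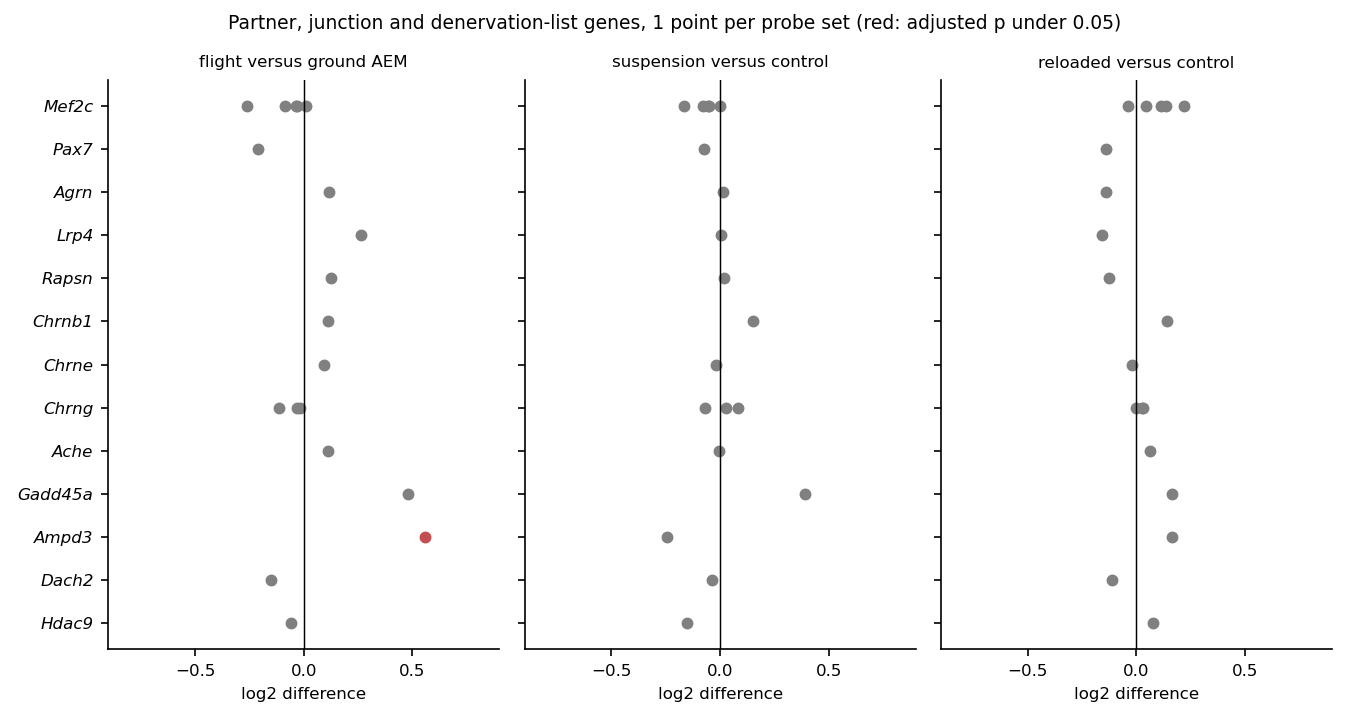
Log2 difference of named partner, junction and denervation-list genes in 3 comparisons of groups, 1 point per probe set; red marks an adjusted p under 0.05. Ampd3 in flight (0.56) is the red point, Gadd45a lies right of 0 in all 3 panels (0.48, 0.39 and 0.17), and the receptor and agrin pathway genes lie between -0.16 and 0.26.

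The genes whose patterns were most like those of the called members were ranked by Pearson correlation over the 23 arrays, after each experiment was centred on its own mean, among 12510 probe sets of other genes with 1 symbol and a mean above the 40th percentile. Closest to Myog were Phlda1 (r = 0.90, Spearman rho = 0.74), Gpr146 (0.89 and 0.79) and Maff (0.85 and 0.55). Phlda1 rose in flight by 1.22, Gpr146 by 0.73 and Maff by 1.31, with -0.14, -0.03 and -0.10 in suspension. Musk was followed most closely by Hbegf (r = 0.77, rho = 0.74), Dpf3 (0.76 and 0.73) and Btg2 (0.76 and 0.79). Hbegf and Btg2 differed by 0.85 and 1.52 in flight and by 0.55 and 0.55 in reloaded against control, where Musk gave 0.54 and 0.36. Dpf3 differed by 0.29 (adjusted p = 0.126) in flight and by 0.13 in reloaded against control. For Six4 the list was Ctdsp2 (r = 0.87, rho = 0.79), Caprin1 (0.87 and 0.83) and Tmem106b (0.86 and 0.81), which differed by -0.46, -0.57 and -0.39 in flight, the last with an adjusted p of 0.0890. The points share arrays and group differences, so these values describe likeness and carry no test.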

How the data were processed

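The authors deposited 1 table of log2 values (2.49 to 14.23) for 23 arrays. The submitters' processing notes name RMA and MAS5 without versions, and it is not given in the sources used here which of these made the deposited log2 table. RNA came from snap-frozen tissue, per the labels' protocols. The 64 control probe sets were left out and 22626 were tested, with no further normalization and no filter on low values.

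Each comparison was a two-sided moderated test in limma 3.58.1 under R 4.3.3, with Benjamini-Hochberg adjustment over all 22626 probe sets and a threshold of 0.05. The 8 flight arrays were fitted on their own and the 15 calf arrays together; differences between effects used all 23 arrays. The scripts were tested on simulated data. Platform symbols, which can be old, named 20380 probe sets with 1 gene, 691 with several and 1555 with no gene symbol in the table used here; promoter windows matched 5 of the 9 members by symbol. No batch or scan time was found in the labels, and the number of arrays limits the precision (median SE of a log2 difference 0.09).

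Named genes were all 9 members, a short set of junction and denervation genes whether called or not, called members of the lists, and the 3 most similar genes per called member. The members and lists were chosen with earlier results of these data known. Alternatives were a level filter, 1 probe set per gene, quantile normalization, median centring, another variance model, array weights, stricter thresholds, other arrays in the fit, arrays left out, and exchanged flight labels.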

Additional observations from a re-analysis of the deposited data

Results flagged for a closer look

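Myog stood out because its flight effect differed from its effects in the calf experiment: the difference was 0.89 (log2) from suspension and 0.97 from reloaded against control, both past the threshold of limma's test of the difference. The difference from suspension lost its call in 13 of 18 omissions of a single array. Tissue and array handling changed together with the experiment.

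In each group of each member probe set, the highest and lowest array was compared with its nearest neighbour (Dixon's test at the 95% level). Of 95 groups tested, 5 had an array standing apart, and chance gives about 1 in 20. Myf6 was low on control replicate 1 (9.54, next 9.79). Six4, in its brighter probe set, was high on control replicate 21 (8.02, next 7.65). Runx1 was high on suspension replicate 8 in 1 probe set (5.38, next 4.91), on control replicate 2 in another (4.77, next 4.42) and on control replicate 19 in the third (5.59, next 5.34); these 3 are dimmer probe sets of the gene, with every value named here under 5.83.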

How the results depend on the processing

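Exchanging the flight labels turns the sign of the flight effect by construction and was run for counts only; signs of called values did not turn under the other alternatives run. Of 2388 recomputed values of single probe sets, 2341 stayed on their side of the threshold, 37 lost a call and 10 gained one. In flight, the 3 member calls became 0 at an adjusted p under 0.01 and 1 with a change of at least 1.5-fold (Myog); leaving out 1 array gave 0 to 3, with 0 without ground AEM replicate 3 or spaceflight replicate 8 or 9, and 1 without ground AEM replicate 1 (Six4) or 4 (Musk). In suspension the count was 0 throughout. In reloaded against suspension, Myf6 made it 1 with 1 probe set per gene, with quantile normalization and with all 23 arrays in the fit; leaving out 1 array gave 0 to 1 (Myf6 without reloaded replicate 16 or suspension replicate 11 or 25, Musk without reloaded replicate 33). In reloaded against control, array weights gave 1 (Musk), and single omissions gave 0.

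For flight minus suspension, the 1 call became 0 with quantile normalization, with a trend and robust estimation and at an adjusted p under 0.01, and 0 to 2 when 1 array was left out; only the omissions of suspension replicate 8 or 9, ground AEM replicate 2 or spaceflight replicate 10 or 11 kept Myog, and the last added Musk. With the flight labels exchanged, and the flight effect so turned, it was 3 (Myog, Musk, Six4). For flight minus reloaded against control, the 1 call became 2 with array weights (Chrna1 added), 0 at an adjusted p under 0.01 and 2 with exchanged labels (Musk, Six4), and stayed 1 when 1 array was left out. The cause of these changes was not tested.

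Over all probe sets, the 888 flight calls ranged from 345 to 1093, the 53 suspension calls from 8 to 69, the 86 reloading calls from 48 to 99, the 46 of reloaded against control from 22 to 118, and the 208 and 451 of the 2 differences from 85 to 914 and from 177 to 714. No paired analysis was possible because the groups of each effect, which are compared within 1 experiment, have no replicate number in common; numbers that recur across experiments mark different tissue and treatment. Most Ncam1 and Runx1 probe sets, and Musk on the control and suspension arrays, lie near the lower end of the signal. Having 4 or 5 arrays a group limits what could be called.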
